A study of Mus musculus with 12 samples.

Results

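Acute phase response genes were followed in mouse retinas by bulk RNA sequencing. The 6 genes Saa3, Lcn2, Hp, Orm1, Cp and Serpina3n were taken by exact match of their names in the gene table, and they are 6 of the 55487 genes listed and 6 of the 16471 genes tested. They were chosen with their levels over the 6 groups already known, so their values are a description and no p-value is given for them. Where members are counted as called, the count stands beside that of all tested genes, and nothing is read from it. The study injected NMDA, a glutamate receptor agonist that kills retinal ganglion cells by excitotoxicity, into the eyes of adult mice and asked how Pax6 and JNK3 take part in that injury. Retinas were collected 24 hours later. The backgrounds were WT, shPax6 and JNK3 KO, with 2 libraries in each group. WT mice were C57BL/6J. shPax6 retinas had received an AAV2.7m8 vector that carries a hairpin RNA against Pax6 driven by the U6 promoter, with GFP. JNK3 KO mice were Jnk3-/-, a germline deletion present in every cell. Each background had eyes injected with 1 µL of PBS and eyes injected with 1 µL of 40 mM NMDA, which is 40 nmol, so the control eyes were injured by the needle as well. The library of a scrambled hairpin was not analysed here, so vector infection and loss of Pax6 cannot be told apart. Each library held RNA from more than 3 pooled retinas, and p-values measure only the spread between these libraries.

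The acute phase response is the change in plasma proteins that follows infection or tissue injury. The liver is its main source, where interleukin-6 acting through STAT3 and interleukin-1 acting through NF-kappaB and C/EBP factors drive transcription. Many of these genes are also made outside the liver by glia, macrophages and neutrophils. In the injured retina and brain, Lcn2 and Serpina3n are known as markers of reactive glia, and ceruloplasmin is made by Müller glia. Saa3 is the mouse serum amyloid A that is made mainly outside the liver, and haptoglobin is stored in neutrophil granules as well as secreted by hepatocytes.

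The promoters of 3 members with their C/EBP matches are shown first, since C/EBP factors act on acute phase genes and these 3 genes varied differently between groups. A table of RefSeq promoters on GRCm38.p6 held Saa3, Lcn2, Cp with 2 start sites, and Serpina3n. Hp and Orm1 had no entry. Each sequence runs 5′ to 3′ from 250 bases before to 50 bases after the annotated start. Capitals mark a match to TTGCNNAA on either strand, the core of a C/EBP site, or in Cp also the TATA box.
Saa3, chr7:46715627-46715926, minus strand: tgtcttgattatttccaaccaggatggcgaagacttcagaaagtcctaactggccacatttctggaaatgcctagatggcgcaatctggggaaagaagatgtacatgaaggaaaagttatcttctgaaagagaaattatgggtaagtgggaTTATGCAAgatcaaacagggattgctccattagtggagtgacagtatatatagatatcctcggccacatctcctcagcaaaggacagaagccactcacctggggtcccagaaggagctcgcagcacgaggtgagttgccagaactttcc
Lcn2, chr2:32387690-32387989, minus strand: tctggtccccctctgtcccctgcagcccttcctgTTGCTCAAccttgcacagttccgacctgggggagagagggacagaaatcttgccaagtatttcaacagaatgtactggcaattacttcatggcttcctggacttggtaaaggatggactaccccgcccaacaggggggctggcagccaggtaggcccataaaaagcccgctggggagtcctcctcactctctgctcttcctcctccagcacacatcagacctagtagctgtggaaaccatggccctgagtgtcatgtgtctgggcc
Cp, second start, chr3:19956999-19957298, plus strand: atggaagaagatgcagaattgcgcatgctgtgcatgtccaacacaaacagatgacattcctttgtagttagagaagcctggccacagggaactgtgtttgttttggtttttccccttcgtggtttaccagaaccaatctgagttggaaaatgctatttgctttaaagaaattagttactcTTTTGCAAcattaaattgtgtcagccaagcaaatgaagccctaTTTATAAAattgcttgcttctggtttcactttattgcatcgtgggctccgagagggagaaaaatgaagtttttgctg
The promoter of Serpina3n held none of the motifs searched and is shown for comparison, because Serpina3n and Cp varied alike. The first start of Cp, chr3:19956804-19957103 on the plus strand, also held none of them and is not printed.
Serpina3n, chr12:104406458-104406757, plus strand: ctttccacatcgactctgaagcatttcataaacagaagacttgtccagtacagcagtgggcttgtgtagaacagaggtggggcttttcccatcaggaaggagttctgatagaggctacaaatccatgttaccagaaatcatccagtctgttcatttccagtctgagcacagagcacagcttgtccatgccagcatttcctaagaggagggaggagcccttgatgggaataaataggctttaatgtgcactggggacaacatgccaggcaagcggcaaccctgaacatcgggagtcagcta

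The C/EBP core began at position -99 in Saa3 on the minus strand and at -216 in Lcn2 on the plus strand, counted from the annotated start. At the second start of Cp it began at -70 on the minus strand, and the first start of Cp held no match. The same core was found in 10.8% of the 32851 promoters of that length. The STAT core TTCNNNGAA was found in 8.3% of them, the NF-kappaB consensus in 4.5% and TATAAA in 13.6%, each on both strands. No STAT or NF-kappaB match lay in the promoters of the 4 members that had an entry. The TATA box at the second start of Cp began at -25 and overlapped its reverse match at -27. These are letter matches in short windows, and the absence of a match says only that these letters are not there.

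Some facts of the whole series bear on the members. Under PBS the WT libraries held 173.48 and 177.30 FPKM of Pax6 and the shPax6 libraries 94.56 and 92.84, so PBS retinas with the hairpin carried less of its mRNA. Under NMDA the WT libraries held 55.42 and 53.81 FPKM and the shPax6 libraries 67.52 and 58.73, so the hairpin retinas did not carry less of it there. Mapk10, which encodes JNK3, was listed at 42.79 and 50.72 FPKM in WT PBS retinas and at 9.47 and 8.75 in JNK3 KO PBS retinas, but also at 8.98 and 6.00 in WT NMDA and 6.65 and 13.77 in JNK3 KO NMDA retinas, which overlapped. The lower level of each targeted gene was thus seen under PBS and not under NMDA. The approximate depth was 21200000 to 26300000 fragments per library, estimated from the steps between low values. Between the 2 libraries of a group, the median gene differed by 0.11 to 0.25 on the log2 scale. In WT retinas the NMDA differences followed gene length, with a median log2 difference of 1.03 for genes under 1 kb and -1.17 for genes over 4 kb. The same medians were 0.18 and -0.07 in shPax6 retinas and -0.11 and 0.16 in JNK3 KO retinas. RNA integrity was not measured here, and its part in the WT NMDA values was not tested. The part of this length trend in the WT values of the members was not tested beyond the length-corrected values given below. Ganglion cell markers fell under NMDA in each background, with 7, 8 and 6 of 10 called lower in WT, shPax6 and JNK3 KO retinas. Of all tested genes, 20.9, 4.94 and 1.87% were called lower in the same order. Under PBS these markers summed to 566.1 to 587.2 FPKM in WT, 167.7 to 168.4 in shPax6 and 539.1 to 581.3 in JNK3 KO libraries. A gene is called here when its log2 difference on log2(FPKM + 0.1) exceeded 1 in size and limma's p, adjusted after Benjamini and Hochberg, was under 0.05. In these bulk samples, fewer cells of a type and less RNA per cell cannot be told apart.

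The 6 members fell into a pair of level patterns across the groups, and their levels per length differed by orders of magnitude. FPKM counts fragments per length of transcript, scaled to the size of the library, so it can be set side by side between genes. In WT PBS retinas the mean level was 789.2 FPKM for Lcn2, 399.6 for Cp, 183 for Serpina3n, 114.7 for Saa3, 19.58 for Hp and 1.38 for Orm1. Among the tested genes there, Lcn2 stood at percentile 99.7, Saa3 at percentile 96.1 and Orm1 at percentile 16.2. Saa3, Hp and Orm1 were high in WT PBS, WT NMDA and JNK3 KO PBS retinas and low in the other 3 groups. Lcn2 and Serpina3n were highest in shPax6 NMDA retinas and lowest in JNK3 KO NMDA retinas, and Cp was likewise lowest there. All 6 members passed the filter on low values, Orm1 only through the 3 groups in which it was detected.

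**Figure D1:**
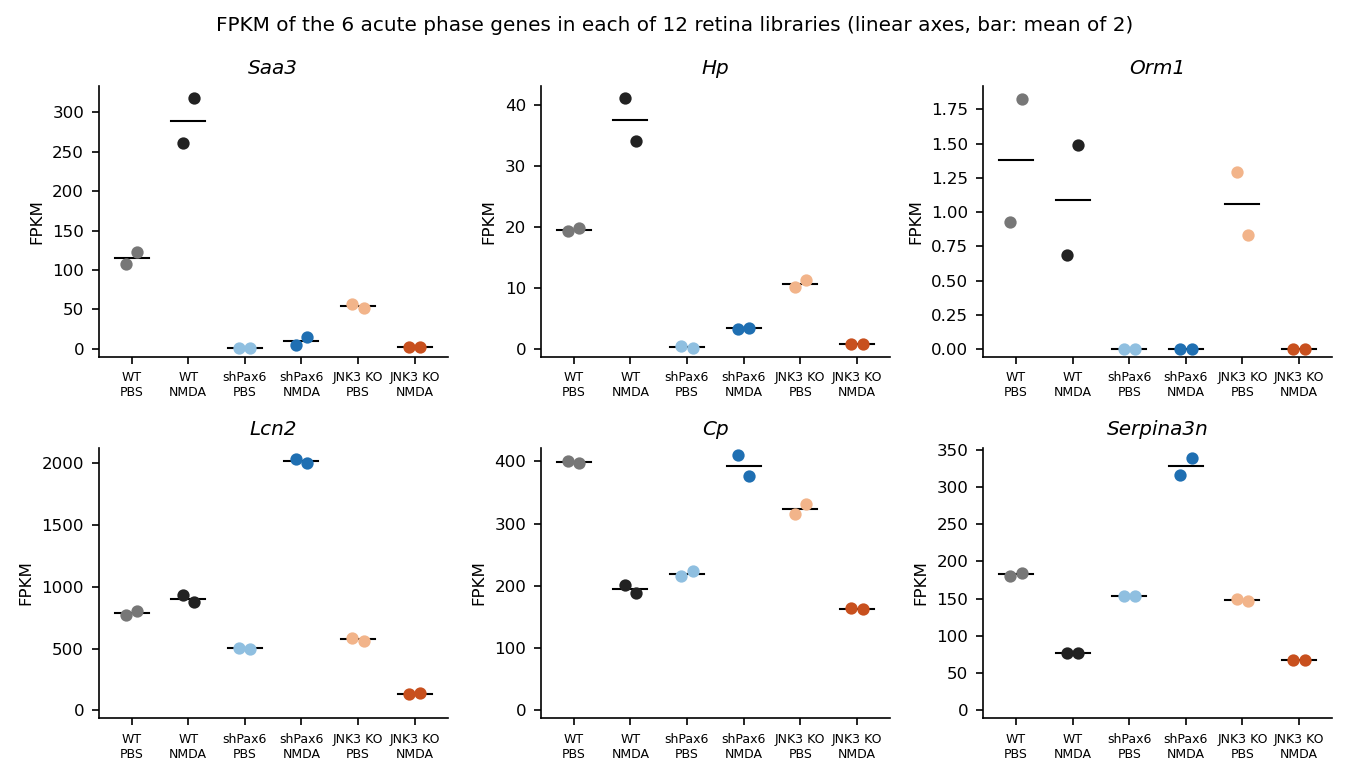
FPKM of each of the 6 acute phase genes in each of the 12 libraries, 1 panel per gene, with points for libraries and a line for the mean of the 2 libraries of a group. Lcn2 reaches 2030.48 FPKM in shPax6 NMDA retinas, whereas Saa3 is highest in WT NMDA retinas and Orm1 is listed at 0 in both shPax6 groups and in JNK3 KO NMDA retinas.

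Saa3, serum amyloid A3, is an apolipoprotein-like protein that binds lipids and calls leukocytes to injured tissue. Its gene lies at chr7:46711998-46715700 on the minus strand of GRCm38, and its C/EBP match is in the first promoter above. The WT PBS libraries held 107.23 and 122.24 FPKM of Saa3, and the WT NMDA libraries held 261.42 and 317.46. In shPax6 retinas it was listed at 1.29 and 1.76 under PBS and at 5 and 14.59 under NMDA. The JNK3 KO libraries held 56.69 and 51.47 under PBS and 2.40 and 2.64 under NMDA. No 2 groups that were neighbors in the order of levels overlapped, and the order was WT NMDA, WT PBS, JNK3 KO PBS, shPax6 NMDA, JNK3 KO NMDA and shPax6 PBS. The mean was 75.2-fold higher in WT PBS than in shPax6 PBS retinas and 21.5-fold lower under NMDA than under PBS in JNK3 KO retinas. Under NMDA the WT mean was 115-fold above the JNK3 KO mean and 29.5-fold above the shPax6 mean. The shPax6 NMDA libraries were the least alike, at a mean of 9.795 ± 6.78 FPKM (SD, n = 2). The values rest on about 12 and 15 fragments in shPax6 PBS libraries, on about 25 and 27 in JNK3 KO NMDA libraries and on 2645 and 3070 in WT NMDA libraries. Transcript Saa3-201 carried 99.8 to 100% of the signal in each library except shPax6 PBS replicate 1, whose few fragments were assigned to another transcript of the gene.

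Hp encodes haptoglobin, the plasma protein that binds free hemoglobin. The gene lies at chr8:109575128-109579172 on the minus strand. It was listed at 19.37 and 19.79 FPKM in WT PBS libraries and at 41.13 and 34.19 in WT NMDA libraries. The shPax6 libraries held 0.40 and 0.20 FPKM under PBS and 3.34 and 3.46 under NMDA. The JNK3 KO libraries held 10.15 and 11.26 under PBS and 0.87 and 0.75 under NMDA. Hp had the same order of groups as Saa3, again with no neighbors overlapping. Its mean was 65.3-fold higher in WT PBS than in shPax6 PBS retinas, where the values rest on only about 11 and 5 fragments. It was 46.5-fold higher in WT NMDA than in JNK3 KO NMDA retinas. Of its transcripts, Hp-203 took 34.7% of the signal in WT PBS replicate 1 and 67.8 and 50.7% in the JNK3 KO NMDA libraries. In the latter, Hp as a whole rests on about 18 and 17 fragments.

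Orm1, orosomucoid 1 or alpha-1-acid glycoprotein, is a plasma carrier of lipids and drugs and lay at chr4:63344560-63348163 on the plus strand. It was listed at 0.93 and 1.83 FPKM in WT PBS, 0.69 and 1.49 in WT NMDA and 1.29 and 0.83 in JNK3 KO PBS libraries, which corresponds to about 11 to 28 fragments. These 3 groups overlapped. Orm1 was listed at 0 in both libraries of shPax6 PBS, shPax6 NMDA and JNK3 KO NMDA retinas, so no fold is given against them. Of the windows of 1 read length in its transcript, 6.7% also occurred in another gene, its copy Orm2, so a small part of its reads could be shared. The detected and undetected groups of Orm1 are the same 3 and 3 that separate high from low Saa3 and Hp.

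Lcn2 encodes lipocalin 2, which binds bacterial siderophores and so withholds iron. It lies at chr2:32384633-32388252 on the minus strand. Lcn2 was listed at 773.69 and 804.78 FPKM in WT PBS libraries and at 933.71 and 873.09 in WT NMDA libraries. It stood at 507.04 and 500.26 in shPax6 PBS libraries and at 2030.48 and 1996.51 in shPax6 NMDA libraries. JNK3 KO retinas held 585.51 and 562.56 under PBS and 129.68 and 136.91 under NMDA. No groups overlapped. In shPax6 retinas the NMDA mean was 4-fold above the PBS mean, while in JNK3 KO retinas the PBS mean was 4.31-fold above the NMDA mean. Under NMDA the shPax6 mean was 2.23-fold above the WT mean, and the WT mean was 6.78-fold above the JNK3 KO mean. Lcn2 shared its highest and lowest group with Serpina3n, but in WT retinas it was not lower under NMDA than under PBS. Transcript Lcn2-201 carried 97.7 to 99.2% of its signal.

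Cp encodes ceruloplasmin, the copper-carrying ferroxidase that oxidizes iron for export. The gene lies at chr3:19957054-20009145 on the plus strand. Cp was listed at 401.06 and 398.08 FPKM in WT PBS libraries and at 200.72 and 187.94 in WT NMDA libraries. It stood at 215.15 and 223.22 in shPax6 PBS libraries and at 409.81 and 376.59 in shPax6 NMDA libraries. Without JNK3 it stood at 315.25 and 332.20 under PBS and at 163.90 and 162.68 under NMDA. Cp was therefore about equally high in WT PBS and shPax6 NMDA retinas, the only neighbors in its order that overlapped. The mean was 2.06-fold higher under PBS than under NMDA in WT retinas and 1.98-fold higher in JNK3 KO retinas, but 1.79-fold higher under NMDA than under PBS in shPax6 retinas. In fragments, WT PBS libraries held about 28059 and 30349 and WT NMDA libraries about 12068 and 11505, a larger ratio than in FPKM.

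The transcript table showed that Cp in WT NMDA retinas was also assigned to other transcripts than in the other groups. Cp-202 and Cp-203 are protein-coding transcripts of 19 exons each. Cp-213 is a short annotated transcript of 5 exons and 674 bases at chr3:19985612-19992582, over exons 15 to 19 of Cp-202, at the 3′ end. Cp-203 was listed at 164.35 and 143.37 FPKM in WT PBS libraries and at 0 in both WT NMDA libraries. Cp-213 took 81.23 and 66.70 FPKM in the WT NMDA libraries, 40.5 and 35.5% of the gene, and at most 6.66 FPKM in any other library. Cp-202 was listed at 130.9 and 142.79 FPKM in WT PBS libraries and at 96.5 and 102.07 in WT NMDA libraries. In shPax6 NMDA libraries Cp-203 stood at 107.08 and 129.87 FPKM, and in JNK3 KO NMDA libraries at 49.37 and 52.94. The shift to the short 3′ transcript was seen in the same 2 libraries in which long genes were listed lower as a class. Whether the length trend or the RNA quality of these libraries plays a part in it was not tested.

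**Figure D2:**
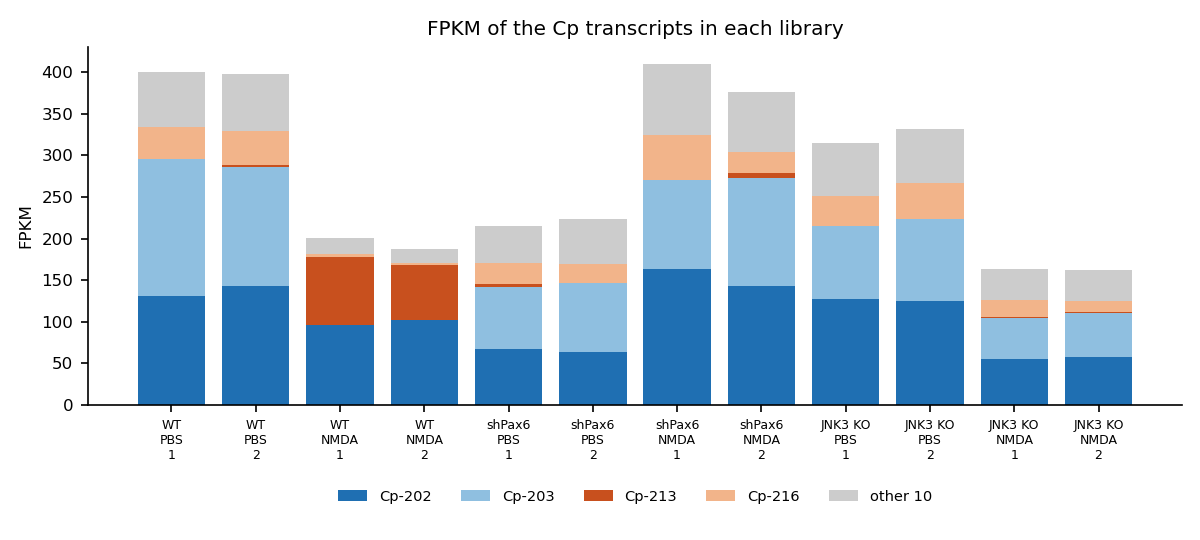
FPKM of the leading Cp transcripts in each of the 12 libraries, as stacked bars that start at 0. The short 3′ transcript Cp-213 appears in the WT NMDA libraries, at 81.23 and 66.70 FPKM, where Cp-203 is listed at 0.

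Serpina3n encodes a secreted serine protease inhibitor, a mouse counterpart of human alpha-1-antichymotrypsin. The gene lies at chr12:104406729-104414329 on the plus strand, and its promoter is the last sequence above. It was listed at 181.15 and 184.79 FPKM in WT PBS libraries and at 77.36 in both WT NMDA libraries. The shPax6 libraries held 154.23 and 153.56 under PBS and 316.39 and 339.45 under NMDA. The JNK3 KO libraries held 149.96 and 147.51 under PBS and 67.79 and 68.18 under NMDA. No groups overlapped. The mean under NMDA was 2.13-fold above that under PBS in shPax6 retinas, while in WT and JNK3 KO retinas the PBS mean was 2.37-fold and 2.19-fold above the NMDA mean. Among the NMDA groups shPax6 retinas held 4.24-fold more than WT retinas, and WT held 1.14-fold more than JNK3 KO. The WT and JNK3 KO groups thus resembled each other for Serpina3n and Cp under NMDA, but differed widely for Saa3, Hp and Lcn2.

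NMDA was compared with PBS within each background to ask how the acute phase genes answered the excitotoxic injury. In WT retinas the log2 differences were 1.33 for Saa3 (SE 0.39), 0.93 for Hp (SE 0.24), 0.19 for Lcn2 (SE 0.05), -1.04 for Cp (SE 0.06) and -1.24 for Serpina3n (SE 0.05), with n = 2 in each group. Orm1 differed by -0.33 with an SE of 0.61. Of the 6 members 1 was called higher and 2 lower (0 and 2 in TPM, 0 and 1 after length correction, 0 and 3 with quantile normalization), while 14.2% of all tested genes were called higher and 20.9% lower. In TPM 931 of 17979 tested genes were called higher and 6167 lower, and after length correction 1439 and 1675 of 16452. With quantile normalization they were 2201 and 2744 of 16471, and scaled to the 75th percentile 1880 and 4111 of 16431. The WT counts of the lists below under these scalings stand beside the same counts of all tested genes. Since the members were chosen on these levels, nothing is read from their counts. Saa3 lost its call without WT NMDA replicate 2 (1.19), WT PBS replicate 1 (1.24) or WT PBS replicate 2 (1.42), and Cp without WT NMDA replicate 2 (-0.99). Rescaling to TPM moved the median of all genes from -0.09 to -0.68, and correction for length trends moved it to 0.08. Relative to the median of all genes, Saa3 stood at 1.42 as deposited, 1.43 in TPM and 0.56 after length correction. On the same relative scale Lcn2 stood at 0.29, 0.30 and -0.72, so its direction turned with the length correction. With quantile normalization it stood at -1.14 and was called lower, and before the median was subtracted its difference was -0.38 in TPM. Hp stood at 1.03, 1.04 and 0.25, Cp at -0.95, -0.94 and -0.61, and Serpina3n at -1.15, -1.14 and -1.37.

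In shPax6 retinas each of the 5 detected members was higher under NMDA than under PBS. The log2 differences were 3.18 for Hp, 2.43 for Saa3, 2.00 for Lcn2, 1.09 for Serpina3n and 0.84 for Cp, with the same SE per gene as in WT retinas. For Saa3 the difference depended on 1 library and was 1.67 without shPax6 NMDA replicate 2 and 3.19 without replicate 1. Hp, Saa3, Lcn2 and Serpina3n were called higher, 4 of 6, and Orm1 was listed at 0 in both groups, while 8.64% of tested genes were called higher and 4.94% lower.

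In JNK3 KO retinas the members were lower under NMDA than under PBS. The log2 differences were -4.37 for Saa3, -3.57 for Hp, -2.11 for Lcn2, -1.13 for Serpina3n and -0.99 for Cp. Orm1 went from 1.29 and 0.83 FPKM to a listing of 0 in both libraries. In this comparison 5 of 6 members were called lower, including Orm1, whose fitted value rests on a group listed at 0, while 0.777% of all tested genes were called higher and 1.87% lower. Orm1 lost that call without JNK3 KO PBS replicate 1.

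**Figure D3:**
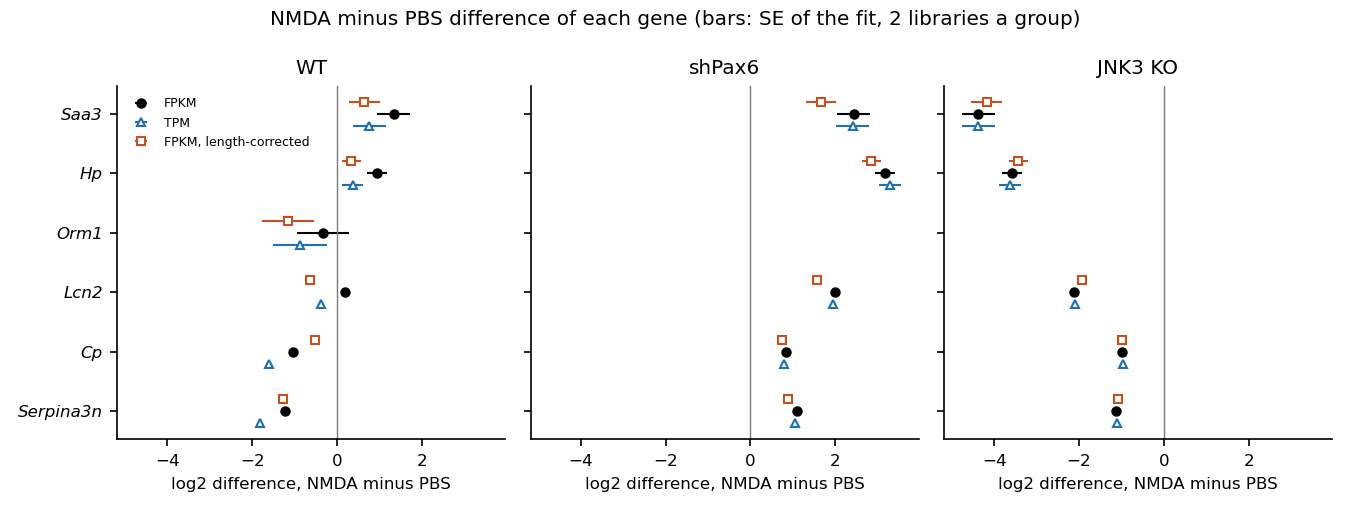
Log2 difference of NMDA against PBS for each member in WT, shPax6 and JNK3 KO retinas, with bars for the SE of the fit (n = 2 libraries a group). Saa3 spans 1.33, 2.43 and -4.37 in the 3 backgrounds, and Serpina3n spans -1.24, 1.09 and -1.13.

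The PBS groups were compared to see the members in eyes that were injected without the excitotoxin. All 5 detected members were lower in shPax6 PBS than in WT PBS retinas, by log2 differences of -6.16 for Saa3, -5.67 for Hp, -0.87 for Cp, -0.65 for Lcn2 and -0.25 for Serpina3n. Saa3, Hp and Orm1 were called lower, 3 of 6, while 0.522% of tested genes were called higher and 3.90% lower. The call of Orm1 rests on a group listed at 0, and Orm1 passed the filter only through the groups in which it was detected. In JNK3 KO PBS retinas the mean of each member was lower than in WT PBS, and only the libraries of Orm1 overlapped. The log2 differences were -1.08 for Saa3, -0.87 for Hp, -0.46 for Lcn2, -0.31 for Orm1 and -0.30 for both Cp and Serpina3n. No member was called by limma there and 1 was at an unadjusted p under 0.05 with a log2 difference beyond 1, while 0.103% of tested genes were called higher and 0.127% lower. WT PBS libraries enter these comparisons and the WT NMDA response as well, so the values are not independent of each other.

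The NMDA responses were also set against each other. The WT response of the members minus the shPax6 response was -2.33 for Serpina3n, -2.24 for Hp, -1.88 for Cp, -1.80 for Lcn2 and -1.10 for Saa3 on the log2 scale. The first 4 were called lower, while 10.3% of tested genes were called higher and 21.7% lower. The value of Saa3 was -0.33 without shPax6 NMDA replicate 2 and -1.86 without replicate 1, and that of Hp was -0.86 with a pseudocount of 1, where its log2 difference no longer passed 1. The WT response minus the JNK3 KO response was 5.70 for Saa3, 4.51 for Hp and 2.30 for Lcn2, but -0.05 for Cp and -0.11 for Serpina3n. In this contrast 4 members were called higher, with Orm1 among them from a response to a listing of 0 in JNK3 KO NMDA libraries (3 higher and 1 lower with quantile normalization), while 15.5% of tested genes were called higher and 20.1% lower. With quantile normalization 2179 of 16471 tested genes were called higher and 2861 lower in this contrast. The value of Lcn2 was 1.29 with the length correction and 0.96 with quantile normalization. That of Cp ranged from -1.07 with quantile normalization to 0.46 with the length correction. The shPax6 response minus the JNK3 KO response was 6.80 for Saa3, 6.75 for Hp, 4.10 for Lcn2, 2.22 for Serpina3n and 1.83 for Cp. The value of Hp was 4.46 with a pseudocount of 1. These 5 detected members were called higher in that contrast, while 6.61% of tested genes were called higher and 2.17% lower. Orm1 was called higher as well, but it was listed at 0 in both shPax6 groups and in JNK3 KO NMDA libraries, so its value only repeats its JNK3 KO response, and the call was lost without JNK3 KO PBS replicate 1.

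Across the 12 libraries the members formed the same pair of patterns. Pearson's r of log2(FPKM + 0.1) was 0.978 between Saa3 and Hp, 0.915 between Saa3 and Orm1 and 0.873 between Hp and Orm1. It was 0.874 between Cp and Serpina3n, 0.744 between Lcn2 and Serpina3n and 0.709 between Lcn2 and Cp. Between the patterns it was -0.084 for Saa3 and Serpina3n, -0.019 for Hp and Serpina3n, and 0.421 for Saa3 and Lcn2. These are descriptions over 12 libraries that fall into 6 groups, and 2 of the libraries, those of WT NMDA retinas, carry the length trend given above. For Orm1, listed at 0 in 3 of the groups, r mostly sets its detected against its undetected groups.

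The genes most like each member were sought among the 12977 protein-coding genes tested with a mean above 1 FPKM over the 12 libraries. Saa3 was most like Mmp9, a neutrophil and macrophage gelatinase (r = 0.989), Pilra (0.986) and Siglece (0.985), both inhibitory receptors of myeloid cells. Hp was most like Siglece (0.983), the formyl peptide receptor Fpr1 (0.981) and the acute phase gene Lrg1 (0.979). Orm1 was most like Rab11b (0.962), Tsc22d1 (0.959) and its copy Orm2 (0.958). Since Orm1 was listed at 0 in all libraries of 3 groups, these r mostly set its detected against its undetected groups. Lcn2 was most like Ifitm3 (0.968), an interferon-induced membrane protein, the Fc receptor Fcgr4 (0.947) and the galectin Lgals9 (0.944). Cp was most like the integrin Itgam (0.985), D430019H16Rik (0.929) and the complement protease C1ra (0.921). Serpina3n was most like AC149090.1 (0.988), complement C3 (0.977) and Gbp2 (0.966), an interferon-induced GTPase. Mmp9 was listed at 16.38 and 17.05 FPKM in WT PBS libraries and at 3.89 and 3.19 in shPax6 PBS libraries, a narrower span than that of Saa3. C3 was listed at 18.82 and 21.46 FPKM in WT PBS libraries, at 7.71 and 4.77 in WT NMDA and at 48.37 and 44.2 in shPax6 NMDA.

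**Figure D4:**
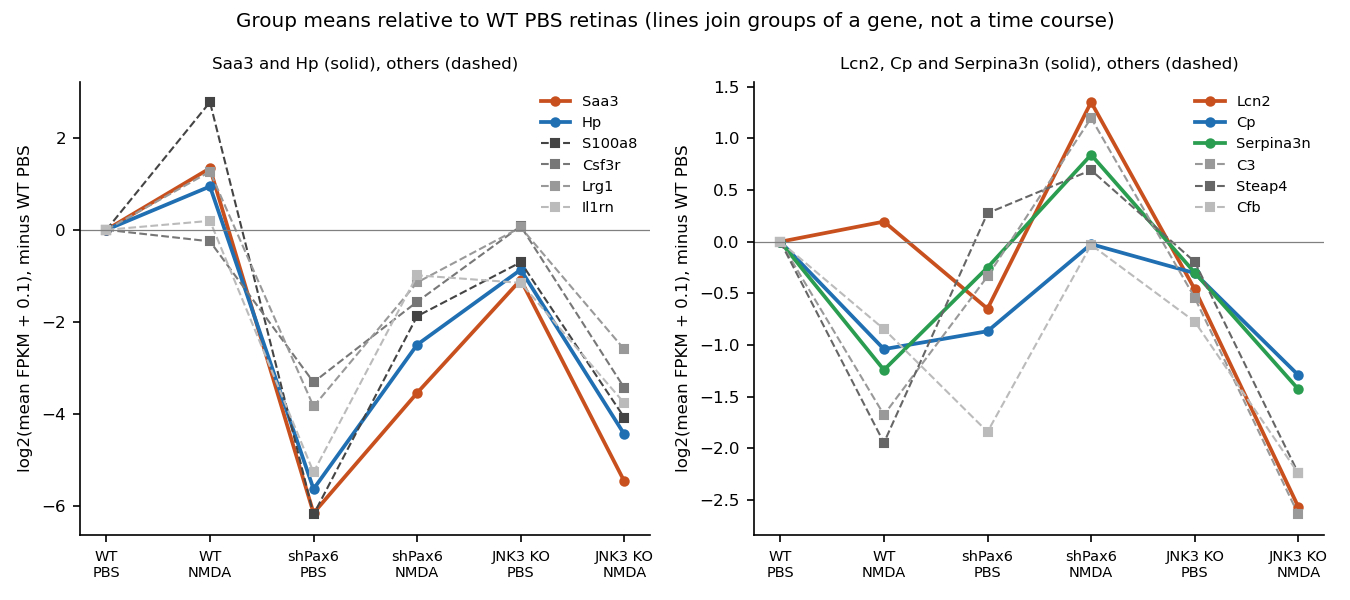
Group means relative to WT PBS retinas, as log2(mean FPKM + 0.1), with Saa3 and Hp on the left and Lcn2, Cp and Serpina3n on the right, each beside other genes (dashed) that were chosen after their values were seen. Saa3 and Hp are lowest in shPax6 PBS and JNK3 KO NMDA retinas and are also far below WT PBS in shPax6 NMDA retinas. Cp and Serpina3n are lowest in JNK3 KO NMDA and WT NMDA retinas, and Cp is nearly as low in shPax6 PBS retinas.

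The close copies of the members were mostly near 0, apart from Orm2. Among serum amyloids Saa4 was listed at 0 in all 12 libraries, Saa1 reached 0.62 FPKM at most and Saa2 reached 0.45. Orm3 was seen in 1 library, at 0.14 FPKM. Orm2 was listed at 4.03 and 5.94 in WT PBS libraries, 1.44 and 1.91 in WT NMDA, 3.16 and 1.84 in JNK3 KO PBS and 0.26 and 0.13 in JNK3 KO NMDA, and at 0 in both shPax6 groups. Its mean was above that of Orm1 in each of the 4 groups in which Orm2 was detected. In the Serpina3 cluster Serpina3k was listed at 0 throughout, while Serpina3c, Serpina3f, Serpina3g, Serpina3h, Serpina3i and Serpina3m reached 0.36, 1.08, 1.98, 1.76, 2.95 and 0.8 FPKM at most. Serpina3n shared 0.2% of its windows of that length with another gene, a pseudogene, and the windows of Saa3, Lcn2, Hp and Cp were not shared.

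The other positive acute phase genes, those known to rise in plasma or liver during the response, comprised 45 listed and 21 tested genes. This list and those below were chosen with earlier results of these data known. Their p-values therefore describe these genes and are no independent support. Of all tested genes, the shares called under NMDA were 14.2% higher and 20.9% lower in WT retinas. They were 8.64 and 4.94% in shPax6 and 0.777 and 1.87% in JNK3 KO retinas. In WT retinas 6 rose under NMDA and 3 fell, with a median log2 difference of 0.16 beside -0.09 over all tested genes. The largest rises were in Cd14, the coreceptor for lipopolysaccharide, at 3.16 (SE 0.27, limma adjusted p = 9.14e-06), and Mt2, a metal-binding metallothionein, at 2.36 (SE 0.09, adjusted p = 1.11e-07). The largest falls were in Steap4, a metalloreductase, at -1.98 (SE 0.19, adjusted p = 2.09e-05), and in complement C3 at -1.71 (SE 0.21, adjusted p = 0.000102). Orm2 also fell, and its call was lost without WT NMDA replicate 1 (-1.31) or WT PBS replicate 2 (-1.23). Rescaled to TPM, the split in WT retinas became 3 higher and 7 lower of 23, and after length correction it was 5 higher and 3 lower of 21. The split of all tested genes moved under these scalings as well, as given with the members.

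In shPax6 retinas 12 of the 21 rose under NMDA, with a median of 1.53, or 1.55 without Orm2, beside 0.10 over all tested genes. None was called lower by limma, and none was lower at an unadjusted p under 0.05, where 16 were higher. Il1rn, the interleukin-1 receptor antagonist, rose by 4.59 (SE 0.51, adjusted p = 0.000207). Complement factor B, Cfb, rose by 1.81 (SE 0.14, adjusted p = 2.21e-05) and C3 by 1.53 (SE 0.21, adjusted p = 0.000745). The calls of Tnfaip6, Lbp and Serpina3i were lost in some fits without 1 library. Tnfaip6 lost its call without either shPax6 NMDA library (2.28 and 2.62), Lbp in 11 of 12 such fits, all but that without shPax6 NMDA replicate 2 (1.23 to 2.65), and Serpina3i in 7 of 12 (1.49 to 2.34). Those 7 each lacked 1 of the shPax6 NMDA, WT PBS or JNK3 KO PBS libraries or shPax6 PBS replicate 1. Fitted on the shPax6 groups alone, 5 of the 21 were called.

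In JNK3 KO retinas 6 of the 21 fell under NMDA, with a median of -0.72 beside -0.01 over all tested genes. None was called higher by limma, and 1 was higher at an unadjusted p under 0.05, where 12 were lower. Orm2 fell by 3.13 (SE 0.46, adjusted p = 0.00383), and Lrg1, a leucine-rich glycoprotein stored in neutrophils and made by the liver, fell by 2.67 (SE 0.30, adjusted p = 0.000967). C3 fell by 2.11 (adjusted p = 0.000569) and Cfb fell by 1.47 (adjusted p = 0.000422). Il1rn fell by 2.61 (adjusted p = 0.0139), a call lost without any 1 of the 4 JNK3 KO libraries (-2.76 to -2.47). In shPax6 PBS against WT PBS retinas 1 rose, C4b, and 7 fell, among them Orm2 to a listing of 0, with a median of -0.64, or -0.60 without Orm2. Of all tested genes, 0.522% were called higher and 3.90% lower in that comparison. In JNK3 KO PBS against WT PBS retinas the median was -0.25. No gene of the list was called by limma there, and 6 were lower at an unadjusted p under 0.05.

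The responses themselves differed between backgrounds for several of these genes, and for some of them in direction. The response of C3 in WT minus that in shPax6 retinas was -3.24 (SE 0.30, adjusted p = 3.93e-05) and that of Steap4 was -2.40 (SE 0.27, adjusted p = 0.000124). C3 was called lower in WT and higher in shPax6 retinas, while Steap4 was called lower in WT and not called in shPax6 retinas. The response of Lrg1 in WT minus that in JNK3 KO retinas was 3.93 (SE 0.43, adjusted p = 6.37e-05), while that of C3 was 0.40 (SE 0.30, adjusted p = 0.308). In all, 9 of 21 were called lower in WT minus shPax6 with a median of -1.37, 6 of 21 higher in WT minus JNK3 KO with a median of 0.80 (in TPM 6 higher and 1 lower), and 13 of 21 higher in shPax6 minus JNK3 KO, Orm2 among them although it was listed at 0 in both shPax6 groups, with a median of 2.17, or 2.10 without Orm2. The medians over all tested genes were -0.28, -0.03 and 0.11 in that order. The shares of all tested genes called in these directions were 21.7% lower, 15.5% higher and 6.61% higher. In TPM 1135 of 17979 tested genes were called higher and 5549 lower in WT minus JNK3 KO. The shPax6 and JNK3 KO responses of Il1rn differed by 7.21 (adjusted p = 0.000297).

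**Figure D5:**
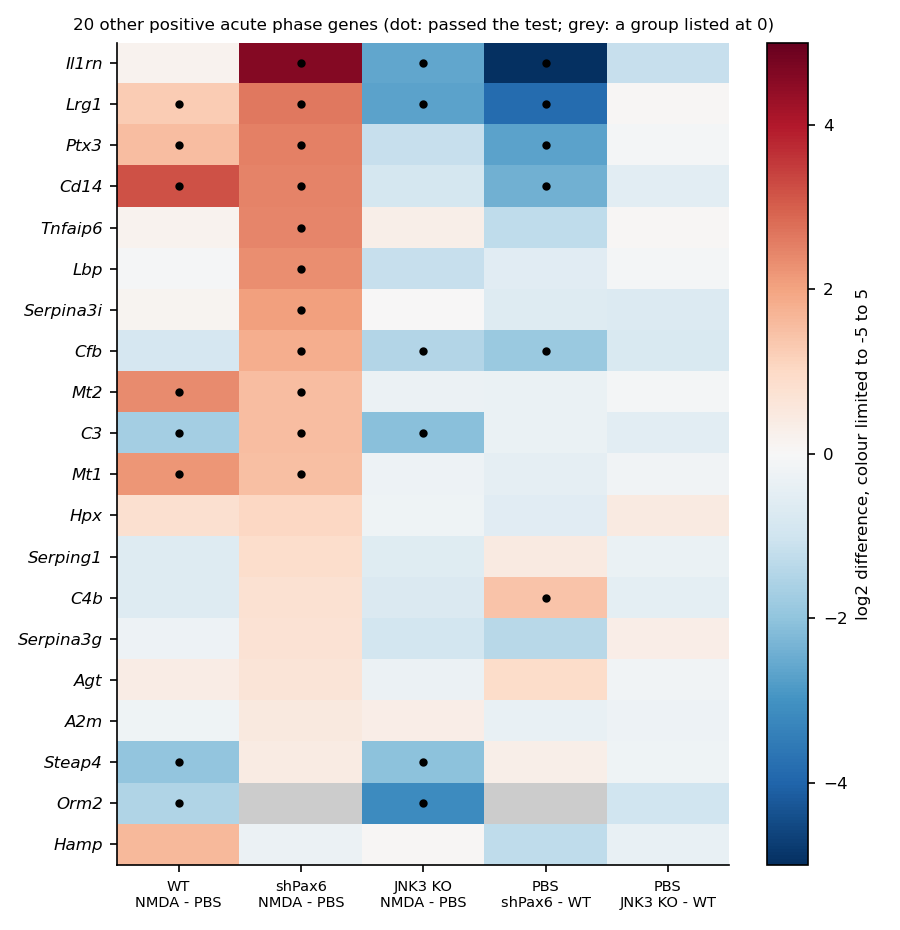
Log2 differences of 20 of the tested acute phase genes that are not members, for NMDA against PBS in each background and for the 2 comparisons of PBS retinas, with a dot where the gene was called and grey where a group was listed at 0. The shPax6 NMDA column holds 11 called rises, and the JNK3 KO NMDA column holds 6 called falls.

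Of the negative acute phase genes, whose plasma proteins decline in the response, 4 of 14 were tested, and Ahsg, Serpina6, Gc and Hrg were listed at 0 in all 12 libraries. Trf, which encodes the iron carrier transferrin, was the most abundant. It was listed at 233.44 and 250.3 FPKM in WT PBS libraries, 290.56 and 295.45 in WT NMDA, 204.29 and 224.09 in shPax6 PBS, 297.62 and 271.4 in shPax6 NMDA, 230.12 and 197.91 in JNK3 KO PBS and 148.81 and 137.51 in JNK3 KO NMDA. Trf was not called by limma in any of the 3 NMDA responses. Ttr, which encodes transthyretin, fell in shPax6 retinas by 3.33 (SE 0.22, limma adjusted p = 9.17e-06), from 35.76 and 32.34 FPKM under PBS to 2.46 and 4.37 under NMDA. Markers of the retinal pigment epithelium moved with it there, with 3 of 4 tested called lower, Slc16a8, Rpe65 and Pmel, and their part in the fall of Ttr was not tested. The 7 markers of that list summed to 20.95 to 24.83 FPKM in shPax6 PBS and 9.8 to 10.43 in shPax6 NMDA libraries. Of the hepatocyte markers Apob, Ahsg, Fabp1, Cyp3a11 and Hpd were listed at 0 in all 12 libraries, and Alb, the albumin gene, was listed at 0.06 FPKM in 1. Ttr and Apoa2 made up most of what was left of that list. In the positive list, Apcs, Fga, Fgb, Serpina1a, Serpina1c, Serpina1d, Serpina1e and Pzp, products of the liver, were also listed at 0 in all 12 libraries.

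The cytokines that induce acute phase genes were measured in the same libraries, with 13 of 15 tested. In WT retinas 8 rose under NMDA, with a median of 1.93. In TPM 6 were called higher and 1 lower, and after length correction 7 higher and 1 lower. Csf3, the granulocyte colony-stimulating factor, rose by 4.33 (SE 0.73, limma adjusted p = 0.000665), from 0.21 and 0.13 FPKM to 4.94 and 5.61, and the interleukin-6 family member Osm rose by 3.80 (SE 0.78, adjusted p = 0.00234). In shPax6 retinas 8 rose as well, led by Lif at 3.65 (SE 0.53, adjusted p = 0.000935). Tnf and Il11 were among the 8 but were listed at 0 in both shPax6 PBS libraries, so no fold is given, and Tnf was at 1.09 FPKM in both shPax6 NMDA libraries. Without JNK3, Clcf1 rose by 1.61 (SE 0.15, adjusted p = 0.000318) and 3 fell, or 1 when scaled to the 75th percentile. Among these, Il1b fell by 4.03 (SE 0.35, adjusted p = 0.00023), from 14.94 and 12.96 FPKM to 0.86 and 0.67. Il1b was at 89.65 and 82.05 FPKM in WT NMDA and at 4.74 and 7.63 in shPax6 NMDA libraries. Il1a fell by 2.12 (adjusted p = 0.031), a call lost without either JNK3 KO NMDA library, JNK3 KO PBS replicate 1 or WT PBS replicate 1 (-2.23 to -1.55). In shPax6 PBS against WT PBS retinas 5 fell, Tnf and Il11 to a listing of 0 and Il1b by 4.19 (SE 0.35, adjusted p = 9.33e-05). Il6 reached 3.09 FPKM at most, in a WT NMDA library.

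Of the cytokine receptors 13 of 14 were tested, with median differences of -0.40 in WT, 0.99 in shPax6 and 0.15 in JNK3 KO retinas under NMDA. In WT retinas Il11ra1 rose by 1.54 (SE 0.12, limma adjusted p = 6.36e-06) and Il1r2, the decoy receptor for interleukin-1, by 1.31 (adjusted p = 0.0136). The Il1r2 call was lost without WT NMDA replicate 1 (1.21) or WT PBS replicate 1 (1.05). Il6st, which encodes the shared signaling chain gp130, fell by 1.33 (SE 0.06, adjusted p = 2.25e-07) but stood at 0.05 after length correction, so its direction turned with that scaling. Il6ra was called lower at -1.35 (adjusted p = 0.0243), a call lost without WT NMDA replicate 1 or either WT PBS library (-1.39 to -1.08). With Lifr, 2 were thus called higher and 3 lower in WT retinas, against 0 and 6 in TPM, 1 and 0 after length correction and 2 and 1 with quantile normalization. As deposited, 2 and 3 of 13 lay near the 14.2 and 20.9% of all tested genes, and nothing is read from them. Counts of all tested genes under the other scalings are given with the members. In shPax6 retinas 6 rose, led by Il1r2 at 4.26 (SE 0.37, adjusted p = 4.84e-05) and Tnfrsf1b at 3.03 (SE 0.17, adjusted p = 3.6e-06). Under NMDA 3 fell in JNK3 KO retinas, led by Csf3r, the neutrophil growth factor receptor, by 3.52 (SE 0.23, adjusted p = 5.44e-05) and Il1r2 by 3.24 (SE 0.37, adjusted p = 0.00111). Il1rap was the only receptor called higher there, at 1.43 (adjusted p = 0.0107), a call lost without any 1 of the 4 JNK3 KO libraries (1.29 to 1.56).

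Of the signal transducers and transcription factors, 23 of 26 were tested. Under NMDA 10 rose and 3 fell in WT retinas, and 10 rose in shPax6 retinas. In JNK3 KO retinas none was called by limma, with 3 higher and 3 lower at an unadjusted p under 0.05. In WT retinas Socs1 rose by 2.20 (SE 0.31, adjusted p = 0.00023) and Relb by 2.02 (SE 0.18, adjusted p = 1.06e-05), while Nr3c1, the glucocorticoid receptor, fell by 1.49 (SE 0.13, adjusted p = 9.86e-06) and Stat5b by 1.33 (SE 0.23, adjusted p = 0.000705). In TPM the WT split was 5 higher and 7 lower, scaled to the 75th percentile 8 and 4, and after length correction 9 and 0, so neither fall was called there. The counts of all tested genes under these scalings are given with the members. In shPax6 retinas Socs3, the feedback inhibitor of interleukin-6 signaling, rose by 2.35 (SE 0.11, adjusted p = 1.8e-06), and Bcl3 rose by 2.31 (SE 0.17, adjusted p = 1.44e-05). Cebpd, a C/EBP factor, went from 28.09 and 26.02 FPKM under PBS to 80.45 and 67.53 under NMDA in WT retinas. The liver factor Hnf4a reached 0.15 FPKM at most.

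Genes for binding partners, receptors and targets of the member proteins were followed as a list, with 13 of 18 tested. Hmox1, the heme oxygenase that degrades heme, rose under NMDA in each background, by 2.02 in WT (SE 0.12, limma adjusted p = 1.07e-06), 4.07 in shPax6 (SE 0.12, adjusted p = 1.98e-07) and 1.19 in JNK3 KO retinas (SE 0.12, adjusted p = 0.000598). It was therefore called higher in JNK3 KO retinas, where Hp was 13.2-fold lower. Cd163, the macrophage receptor for haptoglobin and hemoglobin, reached 0.04 FPKM at most. Of the lipocalin 2 receptors, Slc22a17 was at 82.94 and 88.25 FPKM in WT PBS libraries and was not called in any of the 3 NMDA responses. Lrp2 was called lower in WT retinas at -1.60 (adjusted p = 0.00137) but stood at 0.44 after length correction. In WT retinas 2 of the list were called higher and 3 lower, against 1 and 3 in TPM or scaled to the 75th percentile, 3 and 0 after length correction and 3 and 2 with quantile normalization. The 2 and 3 of 13 lay near the shares of all tested genes, 14.2 and 20.9%, so nothing is read from these counts. Heph, the membrane ferroxidase related to ceruloplasmin, fell by 1.90 in WT retinas (SE 0.32, adjusted p = 0.000735). Mmp9 fell by 1.83 in JNK3 KO retinas (SE 0.23, adjusted p = 0.00179). Fpr1, a formyl peptide receptor of myeloid cells, was called in each background, at 1.35 in WT and -2.84 in JNK3 KO retinas. In shPax6 retinas it went from a listing of 0 in both PBS libraries to 0.40 and 0.65 FPKM, so no fold is given. Its WT call was lost without any 1 of the WT libraries or either JNK3 KO PBS library (1.16 to 1.54), and its JNK3 KO call without either JNK3 KO PBS library (-3.01 and -2.67). Among proteases that Serpina3n inhibits, Ctsg was listed at 0 in all 12 libraries and Elane at 0.1 FPKM in 1.

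Of the iron handling genes 10 of 11 were tested. In WT retinas the ferritin chains Ftl1 and Fth1 rose by 2.13 (SE 0.06) and 1.81 (SE 0.05), each with a limma adjusted p of 2.09e-08. Ireb2, the iron regulatory protein 2, fell by 2.01 (SE 0.16, adjusted p = 5.55e-06) and the ferritin receptor Ncoa4 fell by 1.43 (SE 0.13, adjusted p = 1.44e-05). With Steap3 and Tfrc, 3 were called higher and 3 lower in WT retinas, against 2 and 4 of 11 in TPM, 1 and 3 with quantile normalization and 2 and 0 after length correction. The counts of all tested genes under these scalings are given with the members. In shPax6 retinas Ftl1 rose by 1.67 (SE 0.06, adjusted p = 2.43e-07) and the metalloreductase Steap3 by 1.62 (SE 0.25, adjusted p = 0.00138). For the JNK3 KO response Steap3 was at 1.01 (adjusted p = 0.037), a call lost in 10 of 12 fits without 1 library (0.94 to 1.08), all but those without a shPax6 PBS library.

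Markers of blood and glial cells differed between the groups as well, some in the order of the members and some not, and their part in the members' values was not tested. The WT values of these cell type lists are given without length correction, and the part of the length trend in them was not tested. The shares of all tested genes called in each comparison are those given above. The 13 neutrophil markers summed to 229.8 to 252.9 FPKM in WT PBS libraries and 1978 to 2019 in WT NMDA libraries. They summed to 8.39 to 12.43 in shPax6 PBS, 71.12 to 82.25 in shPax6 NMDA, 171.5 to 184.5 in JNK3 KO PBS and 17.61 to 18.34 in JNK3 KO NMDA libraries. This is the order of groups seen for Saa3 and Hp. None was listed at 0 in all 12 libraries, and Elane, a defining marker, was at 0 in 11. Of the 10 tested, 6 rose in WT, 6 rose in shPax6 and 5 fell in JNK3 KO retinas under NMDA, and 7 fell in shPax6 PBS against WT PBS retinas. S100a8 and S100a9, the calprotectin chains, were the most abundant of the list. S100a8 was listed at 92.61 and 107.55 FPKM in WT PBS libraries, 1.44 and 1.14 in shPax6 PBS and 6.42 and 5.29 in JNK3 KO NMDA. It rose by 2.77 in WT (adjusted p = 1.44e-06) and 4.29 in shPax6 (adjusted p = 7.94e-07) and fell by 3.37 in JNK3 KO retinas (adjusted p = 1.63e-05). From WT PBS to WT NMDA retinas the neutrophil sum differed far more than Saa3 did.

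The 10 monocyte and macrophage markers summed to 151.1 to 165.8 FPKM in WT PBS, 246.8 to 249.8 in WT NMDA, 52.94 to 55.04 in shPax6 PBS and 439.3 to 440.8 in shPax6 NMDA libraries. The JNK3 KO libraries summed to 119.2 to 125 under PBS and 97.49 to 99 under NMDA. Like Lcn2, this sum was highest in shPax6 NMDA retinas, but unlike Lcn2 it was lowest in shPax6 PBS retinas. Lyz2 and Cd68 led it, and 9 of 10 rose in shPax6 retinas under NMDA. The 8 Müller glia markers summed to 648.6 to 648.7 FPKM in WT PBS, 369.2 to 373 in WT NMDA, 867.5 to 880.6 in shPax6 PBS and 704.5 to 730.9 in shPax6 NMDA libraries. The JNK3 KO sums were 715.5 to 718.8 under PBS and 608.6 to 628.2 under NMDA, and Glul and Dkk3 led the sum. Under NMDA 5 of the 8 fell in WT retinas, with a median of -1.30, and 1 fell in shPax6 retinas, with a median of -0.10. In JNK3 KO retinas none was called by limma and the median was 0.30, with 5 higher and 3 lower at an unadjusted p under 0.05, so the sum and most of its markers differed in direction. The 8 microglia markers summed to 22.35 to 25.16 FPKM in WT PBS, 23.55 to 27.15 in WT NMDA, 45.11 to 52.62 in shPax6 PBS, 70.3 to 85.63 in shPax6 NMDA, 25.17 to 26.24 in JNK3 KO PBS and 26.2 to 27.84 in JNK3 KO NMDA libraries. They were thus higher in shPax6 PBS than in WT PBS retinas, where the 5 detected members were lower. Of the 11 gliosis markers 7 rose and 1 fell in shPax6 retinas, 3 rose (Vim, Edn2 and Nes) and 1 fell in WT, and 2 rose (Cd44 and Nes) and 2 fell in JNK3 KO retinas. They summed to 778.9 to 811.7 FPKM in WT PBS and 1616 to 1636 in WT NMDA, 523.5 to 573.5 in shPax6 PBS and 1266 to 1333 in shPax6 NMDA, and 821.6 to 833.3 in JNK3 KO PBS and 943 to 959 in JNK3 KO NMDA libraries. Gbp2, picked from them after its values were seen, rose by 1.19 in shPax6 retinas (adjusted p = 0.000219) and fell by 1.49 in WT (adjusted p = 1.21e-05) and by 1.32 in JNK3 KO retinas (adjusted p = 0.000569). These are the signs that Serpina3n showed, which Vim, Edn2, Nes and Cd44 did not share. Globin transcripts moved with NMDA too, and 5 of 6 erythrocyte markers rose in WT and 4 of 6 in shPax6 retinas. In JNK3 KO retinas none was called by limma, and 2 were lower at an unadjusted p under 0.05.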

How the data were processed

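Polyadenylated RNA of 12 mouse retina libraries was sequenced as pairs of 101-base reads. The authors aligned reads with STAR 2.7.1a to GRCm38.p6 (Ensembl release 101) and estimated expression with RSEM 1.3.3, and the deposited tables give FPKM for each gene and each transcript. The authors' processing notes also name edgeR 3.36.0 and R 4.1.0. FPKM is relative to all fragments of a library, so 1 abundant class can lower the rest.

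Samples were grouped by the labels as background and injection, 2 libraries in each of 6 groups. Here limma 3.58.1 (R 4.3.3) was fitted to log2(FPKM + 0.1) for the 16471 genes whose mean exceeded 1 FPKM in any of the groups, with an intensity trend and 6 residual degrees of freedom, in place of a count test, and 8 comparisons were read from the fit. Fold changes on this scale understate those of low genes. Calls needed p under 0.05 after the adjustment of Benjamini and Hochberg and a log2 difference beyond 1 in either direction. The script was tested on simulated data. Tables and plots used Python 3.11.15, numpy 2.4.6, pandas 2.3.3 and matplotlib 3.10.9. Intervals were not computed, since FPKM holds no counts; depth was estimated from steps between low values, of which 65.0 to 88.0% lay within 0.15 of a whole fragment.

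The members and all gene lists were chosen with earlier results of these data known. Genes named from the pathway lists were, for each NMDA response, the 2 called genes with the highest and the 2 with the lowest log2 difference, with a few more added after their values were seen. Values of 2 genes of the lists are not reported here, although the counts include them. From each cell type list the 2 most abundant genes were named. The genes most like a member were the 3 protein-coding genes with the highest Pearson r over the 12 libraries. Coordinates are those of GENCODE M21 on GRCm38, which matched 99.53% of the gene identifiers. Same-numbered replicates did not deviate together (r between -0.097 and 0.086), and nothing in the labels pairs them. Alternatives were other pseudocounts (0.5 and 1), filters, scalings, a length correction, a replicate block, the compared groups alone, no intensity trend, unadjusted p, summed transcripts and leaving out each library.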

Additional observations from a re-analysis of the deposited data

Results flagged for a closer look

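Several members and other acute phase genes moved in opposite directions under NMDA in different backgrounds, with both libraries of each group on the same side. For the members the difference between responses is a description with no p-value, since they were chosen on these values. Between WT and shPax6 retinas the response difference was -1.88 for Cp and -2.33 for Serpina3n on the log2 scale, each lower under NMDA in WT and higher in shPax6 retinas. Between WT and JNK3 KO retinas it was 5.70 for Saa3, 2.30 for Lcn2 and 4.51 for Hp, each higher under NMDA in WT and lower in JNK3 KO retinas, although Lcn2 in WT retinas turned to lower in TPM, after length correction and with quantile normalization. Between shPax6 and JNK3 KO retinas it was 6.80 for Saa3, 6.75 for Hp, 4.10 for Lcn2, 2.22 for Serpina3n and 1.83 for Cp.

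For other acute phase genes, also listed with earlier results of these data known, the difference of responses was tested with limma. C3 differed by -3.24 between WT and shPax6 retinas (adjusted p = 3.93e-05), and Lrg1 by 3.93 between WT and JNK3 KO retinas (adjusted p = 6.37e-05). Between shPax6 and JNK3 KO retinas Il1rn differed by 7.21 (adjusted p = 0.000297), Lrg1 by 5.30 (adjusted p = 8.27e-05), C3 by 3.64 (adjusted p = 9.73e-05) and Cfb by 3.29 (adjusted p = 1.69e-05). The groups hold 2 libraries each, so no search for single outlying libraries was made.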

How the results depend on the processing

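Of the counts of called genes, 202 of 208 values under other settings stayed within 1.5 times the reported count. These counts add both directions, so a change in the split of higher and lower does not show in them. Such changes are given above for WT retinas, for the other acute phase genes in TPM and for the members with quantile normalization. The exceptions for other acute phase genes were 5 in place of 12 (shPax6 response) and 5 in place of 8 (shPax6 against WT under PBS) with the compared groups fitted alone, 1 in place of 0 (JNK3 KO against WT under PBS) with a pseudocount of 1, and 14 in place of 9 (WT minus shPax6) in TPM. For the members they were 1 in place of 3 (WT response) after length correction, and 1 in place of 0 (JNK3 KO against WT under PBS) at an unadjusted p. Why the counts moved was not tested. Without 1 library at a time, the counts of other acute phase genes ranged from 8 to 9, 10 to 12 and 5 to 7 (WT, shPax6 and JNK3 KO responses), 8 to 10 and 0 to 1 (shPax6 and JNK3 KO against WT under PBS), and 7 to 11, 6 to 7 and 13 to 14 (WT minus shPax6, WT minus JNK3 KO, shPax6 minus JNK3 KO). The members' counts ranged from 2 to 3, 4 to 4, 5 to 5, 3 to 3, 0 to 1, 4 to 5, 4 to 4 and 5 to 6 in the same order. The count of 1 in JNK3 KO against WT under PBS came without either shPax6 PBS library for the other genes and without either shPax6 NMDA library for the members. Of the members' log2 differences, 343 of 460 values under other settings and 466 of 504 without 1 library moved by less than the spread between replicates. Many of these could not move, so the totals are no measure of stability. The filters, the compared groups alone and the replicate block leave a log2 difference unchanged. Leaving out a library that is not part of the comparison leaves it unchanged as well.

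With replicate number as a block, 9, 11 and 6 other acute phase genes were called in the WT, shPax6 and JNK3 KO responses, and 3, 4 and 5 members, so no count moved by 1.5 times. The numbers share only a name, because deviations of same-numbered libraries correlated by no more than 0.086. Depth limits Orm1, Hp in the shPax6 PBS and JNK3 KO NMDA libraries and Saa3 in the same 4 libraries, each with under 30 fragments, where single fragments shift the log2 values.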

Other observations

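The 6 members together summed to 1483 to 1532 FPKM in WT PBS and 1492 to 1515 in WT NMDA libraries. They summed to 878.1 to 879 in shPax6 PBS, 2731 to 2765 in shPax6 NMDA, 1106 to 1119 in JNK3 KO PBS and 364.6 to 371.2 in JNK3 KO NMDA libraries. The WT sums of PBS and NMDA retinas overlapped while single members differed in both directions, with Saa3 and Hp higher under NMDA and Cp and Serpina3n lower. The other positive acute phase genes, led by Mt1 and Mt2, summed to 1096 to 1216 FPKM in WT PBS and 4726 to 5042 in WT NMDA libraries, which did not overlap.

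The metallothioneins Mt1 and Mt2, zinc-binding proteins of the acute phase response, did not follow either pattern. In WT retinas Mt1 went from 490.98 and 552.4 FPKM under PBS to 2348.81 and 2496.55 under NMDA. It was listed at 1075.09 and 1096.91 in shPax6 NMDA and at 386.17 and 387.25 in JNK3 KO NMDA libraries. It rose by 2.22 in WT (SE 0.07, limma adjusted p = 3.24e-08) and by 1.51 in shPax6 retinas (SE 0.07, adjusted p = 9.55e-07), and it was not called in JNK3 KO retinas. The WT value of Mt1 is given without length correction. The complement gene C4b was called higher in shPax6 PBS than in WT PBS retinas, at 30.44 and 34.36 against 10.79 and 13.14 FPKM, opposite to the 7 acute phase genes that were called lower in that comparison.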
